A study of Mus musculus with 8 samples.

Results

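Mural cells are the cells wrapped around blood vessels: pericytes on capillaries and vascular smooth muscle cells on arterioles and larger vessels. Of 31053 gene identifiers counted in eyecups of mice at postnatal day 11 (P11), 10 were taken as mural cell genes by their symbols, and all 10 matched 1 identifier each. They were 6 genes used to recognise pericytes (Pdgfrb, Notch3, Rgs5, Cspg4, Abcc9 and Kcnj8) and 4 genes of the smooth muscle contractile apparatus (Acta2, Myh11, Tagln and Cnn1). Several of them are active in both mural cell types, so the division into 6 and 4 is by best known role.

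The study asked how loss of the ciliary gene Bbs8, listed in the annotation as Ttc8, alters the retinal pigment epithelium. The labels give 4 Bbs8+/+ (wild type) and 4 Bbs8-/- (knockout) libraries from mice on the C57/Bl6 strain, untreated and all taken at P11, and the study describes the controls as littermates. The knockout was present throughout the body, so mural cells and their neighbours all lacked the gene. The labels call the tissue eye cups of retinal pigment epithelium. The study's methods describe RNA from eyecups homogenised after muscle, fat, cornea, lens, retina and optic nerve had been discarded, but elsewhere the study calls the sequenced material pigment epithelium, and no source used here says how much choroid and sclera remained. Endothelial, melanocyte and collagen genes were measured in every library, as given further on.

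In the vessel wall, endothelial cells secrete platelet-derived growth factor B, which attracts and keeps mural cells through the receptor encoded by Pdgfrb. Notch ligands on the endothelium signal to Notch3 on the mural cell. Contractile proteins driven by the serum response factor (SRF) and its cofactors let smooth muscle narrow the vessel. The choroid, the vascular bed behind the pigment epithelium, carries a dense fenestrated capillary layer fed by larger vessels, and so holds both kinds of mural cell.

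Levels are given in CPM, the usual scaling of a gene's reads to a common library total, with TMM factors that correct for differences in library composition. Because QuantSeq reads the 3′ end of each transcript, a long and a short transcript yield about the same number of reads, and levels of different genes were therefore compared without dividing by length. Differences are log2 fold changes of Bbs8-/- over Bbs8+/+ from edgeR, and FDR is the p-value adjusted over the 13813 genes tested, with calls at FDR 0.05.

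All 10 members passed the filter on low counts and were tested. Rgs5 and Notch3 were down-regulated in Bbs8-/- and no member was up-regulated, a count of 2 lower genes among 10 beside 1.14% lower and 1.1% higher among all genes tested. All 6 pericyte genes had a negative log2 fold change, with a median of -0.34, while the contractile genes divided into 2 negative and 2 positive with a median of 0.01. Over all genes tested the median was 0.00 and 50.5% of genes were negative. All 4 Bbs8-/- libraries lay below all 4 Bbs8+/+ libraries for Rgs5, Notch3 and Pdgfrb, which is 3 of 10 members where 3.76% of all genes did so. Acta2 alone among the members showed the opposite order, with all 4 Bbs8-/- libraries above, as did 3.62% of all genes. In whole tissue, fewer cells of a type and less RNA per cell cannot be told apart.

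**Figure D1:**
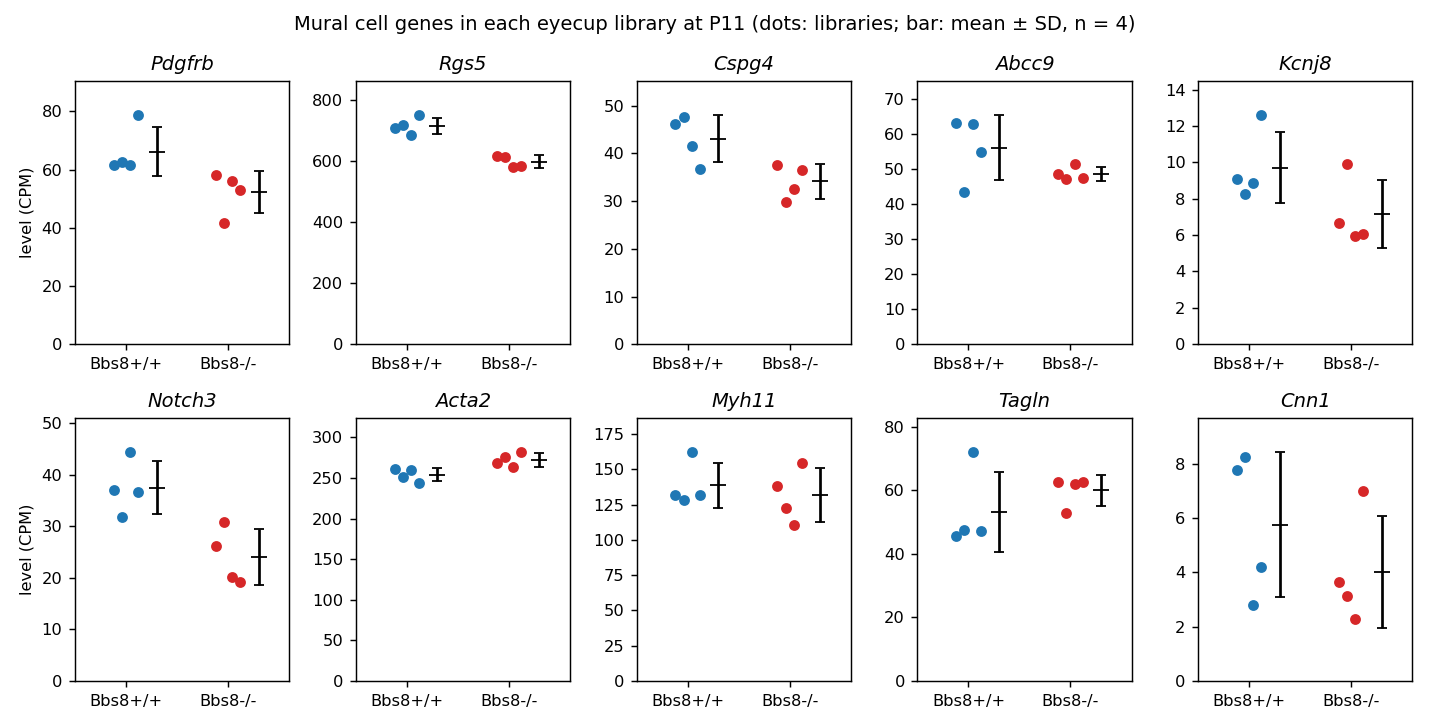
Level of each of the 10 mural cell genes in CPM (vertical axes, each from 0) in the 4 Bbs8+/+ and 4 Bbs8-/- libraries, with blue and red dots for libraries of the 2 genotypes in that order and a bar for the mean ± SD. Rgs5 ranges from 580 to 617 CPM in Bbs8-/- against 685 to 751 CPM in Bbs8+/+, while the Myh11 and Tagln dots of the genotypes overlap.

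The members spanned a wide range of levels. In Bbs8+/+ the order was Rgs5 at 715 ± 27.3 CPM, Acta2 at 254 ± 8.27, Myh11 at 139 ± 15.9, Pdgfrb at 66.2 ± 8.33, Abcc9 at 56.0 ± 9.23, Tagln at 53.2 ± 12.6, Cspg4 at 43.0 ± 4.94, Notch3 at 37.5 ± 5.17, Kcnj8 at 9.70 ± 1.95 and Cnn1 at 5.76 ± 2.68 CPM (SD, n = 4). Rgs5, Acta2 and Myh11 did not overlap with each other or with the genes after them in either genotype. From Pdgfrb to Notch3, each gene overlapped with the next in Bbs8+/+, and so did Kcnj8 and Cnn1. In Bbs8-/- Tagln, at 60.0 ± 4.81 CPM, overlapped with Pdgfrb, at 52.3 ± 7.30 CPM, and stood apart from Abcc9, which in turn stood apart from Cspg4. Rgs5 ranked number 90 among the 13813 genes by mean level and Acta2 number 415, whereas Kcnj8 and Cnn1 stood at the 30.9 and 20.6 percentiles.

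Rgs5 encodes a regulator that shortens G protein signalling and is among the most abundant transcripts of pericytes. It lies on chromosome 1 from 169655501 to 169695813 (mm10, plus strand). The Bbs8+/+ libraries held Rgs5 at 709, 717, 685 and 751 CPM, and the Bbs8-/- libraries at 617, 616, 580 and 584 CPM. Every Bbs8-/- library was thus well below every Bbs8+/+ library. Rgs5 averaged 715 ± 27.3 CPM in wild type and fell to 599 ± 19.97 CPM (SD, n = 4 per genotype). On the log2 scale this was -0.26 (SE 0.0548, edgeR FDR 0.000858), a percent change of -16.3. Between 1016 and 2147 counts per library lay behind these values, the most of any member. The call held in all 17 alternatives, with a log2 fold change between -0.27 and -0.23 and a highest FDR of 0.0125.

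Notch3 encodes the Notch receptor of mural cells, which is needed for the maturation and upkeep of arterial smooth muscle. The gene occupies chromosome 17 from 32120820 to 32166852 on the minus strand. Its level was 37.1, 31.9, 44.4 and 36.7 CPM in Bbs8+/+ and 26.1, 30.9, 20.2 and 19.2 CPM in Bbs8-/-. The genotypes did not overlap, but the highest Bbs8-/- library (replicate 2) and the lowest Bbs8+/+ library (also replicate 2) were close to each other. Mean Notch3 fell to 24.1 ± 5.45 CPM from 37.5 ± 5.17 CPM (SD, n = 4 per genotype). The log2 fold change was -0.65 (SE 0.183, edgeR FDR 0.0324), a percent change of -36.1. This call was lost in 8 of 17 alternatives, in which the log2 fold change lay between -0.68 and -0.54 and the FDR between 0.0508 and 0.185. In 6 of those 8, 1 library had been left out (any of Bbs8+/+ replicates 1, 3 and 4 and Bbs8-/- replicates 1, 3 and 4), and the others were DESeq2 and thinning to the smallest library. An antisense gene, Gm17276, shares 488 exonic bases with Notch3 and had 0 counts in every library. Since the strand used in counting is not known, 0 counts do not show whether reads in the shared bases were left out. The same holds for Abcc9, which shares 158 exonic bases with the antisense gene 5330439B14Rik, also at 0 counts.

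The stretches around the start sites of the 2 down-regulated members are shown in full, from 250 bases before to 50 bases after the start, 5′ to 3′, as RefSeq gives them for GRCm38.p6. The search was for the CArG box, the A- and T-rich motif bound by SRF, and lower case throughout means that neither window held it.
Rgs5, chr1:169655251-169655550, plus strand: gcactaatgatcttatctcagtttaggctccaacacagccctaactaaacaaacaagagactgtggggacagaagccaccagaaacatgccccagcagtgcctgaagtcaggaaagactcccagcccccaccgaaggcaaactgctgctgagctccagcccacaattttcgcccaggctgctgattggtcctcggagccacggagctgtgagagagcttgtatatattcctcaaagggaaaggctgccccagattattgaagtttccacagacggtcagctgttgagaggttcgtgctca
Notch3, chr17:32166841-32167140, minus strand: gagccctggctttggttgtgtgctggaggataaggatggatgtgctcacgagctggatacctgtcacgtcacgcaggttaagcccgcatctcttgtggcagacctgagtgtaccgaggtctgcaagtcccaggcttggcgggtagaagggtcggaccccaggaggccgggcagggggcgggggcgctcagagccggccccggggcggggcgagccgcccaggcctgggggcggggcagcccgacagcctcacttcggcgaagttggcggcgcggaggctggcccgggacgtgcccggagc

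The gene for the receptor of platelet-derived growth factor B, Pdgfrb, lies on chromosome 18 from 61045150 to 61085061. It was measured at 61.7, 62.6, 61.7 and 78.7 CPM in Bbs8+/+ and 58.3, 41.8, 56.0 and 52.9 CPM in Bbs8-/-. The genotypes did not overlap, although 3 Bbs8+/+ libraries stood close above the highest Bbs8-/- library and Bbs8+/+ replicate 4 stood well apart. The log2 fold change of -0.35 (SE 0.134) was not past the threshold (edgeR FDR 0.193, unadjusted p 0.0104), with an approximate 95% interval of -0.61 to -0.09. Without Bbs8+/+ replicate 4 the log2 fold change was -0.25, and without Bbs8-/- replicate 2 it was -0.26.

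Cspg4 encodes the NG2 proteoglycan on the pericyte surface and lies on chromosome 9 from 56865033 to 56899870. Its level was 46.2, 47.6, 41.6 and 36.7 CPM in Bbs8+/+ and 37.7, 29.8, 32.6 and 36.5 CPM in Bbs8-/-. Only Bbs8-/- replicate 1 reached above the lowest Bbs8+/+ library. The log2 fold change was -0.33 with an interval of -0.65 to -0.02 (edgeR FDR 0.355, unadjusted p 0.0401), not past the threshold.

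Abcc9 and Kcnj8 encode the regulatory and the pore-forming subunit of the vascular ATP-sensitive potassium (KATP) channel, which couples the metabolic state of a mural cell to its tone. They are neighbours on the minus strand of chromosome 6, Kcnj8 from 142564837 to 142571614 and Abcc9 from 142587862 to 142702315, with 16247 bases between them. Abcc9 was measured at 63.0, 43.3, 62.7 and 54.9 CPM in Bbs8+/+ and at 48.6, 47.1, 51.4 and 47.2 CPM in Bbs8-/-. The Bbs8-/- libraries all lay within the Bbs8+/+ range, which was wide because of replicate 2. Kcnj8 was at 9.06, 8.27, 8.89 and 12.6 CPM in Bbs8+/+ and 6.68, 9.94, 5.97 and 6.08 CPM in Bbs8-/-. Here 3 Bbs8-/- libraries lay below all of Bbs8+/+ and replicate 2 lay among them. The log2 fold changes were -0.20 for Abcc9 (edgeR FDR 0.599) and -0.45 for Kcnj8 (FDR 0.631), both short of the threshold, with intervals of -0.47 to 0.08 and -1.11 to 0.21. Without Bbs8+/+ replicate 2 the value of Abcc9 was -0.30. Kcnj8 had 11 to 36 counts per library and accordingly the widest interval of the pericyte genes. Its log2 fold change was -0.29 without Bbs8+/+ replicate 4 and -0.70 after thinning to the smallest library. The sister subunits Abcc8 and Kcnj11, which form the pancreatic channel, were near the limit of detection. Abcc8 had at most 2 counts per library and was not tested, and Kcnj11 had 1 to 6 counts (log2 fold change 1.08, interval -0.53 to 2.69, FDR 0.637).

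Among the contractile genes, Acta2, which encodes smooth muscle alpha-actin, was the most abundant. It lies on chromosome 19 from 34241090 to 34255590, minus strand. The level of Acta2 was 262, 252, 260 and 244 CPM in Bbs8+/+ and 268, 276, 263 and 282 CPM in Bbs8-/-. All Bbs8-/- libraries were above all Bbs8+/+ libraries, Bbs8-/- replicate 3 only just above Bbs8+/+ replicate 1. The log2 fold change of 0.10 (SE 0.0707) did not pass the test (edgeR FDR 0.592), and its interval ran from -0.04 to 0.24. A fall as large as that of Rgs5 was outside this interval.

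Myh11 encodes the smooth muscle myosin heavy chain, a gene largely restricted to smooth muscle, and Tagln encodes transgelin (SM22), an actin-binding protein of the same cells. Myh11 (chromosome 16, 14194535 to 14291372) was at 132, 128, 162 and 132 CPM in Bbs8+/+ and 138, 122, 111 and 155 CPM in Bbs8-/-. Its log2 fold change was -0.07 with an interval of -0.26 to 0.11 (edgeR FDR 0.824). Tagln (chromosome 9, 45929619 to 45936058) was at 45.7, 47.6, 72.0 and 47.2 CPM in Bbs8+/+ and 62.6, 52.8, 62.0 and 62.7 CPM in Bbs8-/-. The highest of all 8 libraries for both genes was Bbs8+/+ replicate 3, and the genotypes overlapped. For Tagln the log2 fold change was 0.19 with an interval of -0.09 to 0.46 (edgeR FDR 0.627), and it was 0.36 without Bbs8+/+ replicate 3. Tagln shares exonic bases on the opposite strand with Pcsk7 (108 bases) and Gm48529 (1241 bases), which had 17 to 43 and 2 to 4 counts per library, and its counts are uncertain, since no source used here says whether counting used strand and the reads this could have removed were not measured.

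Cnn1 encodes calponin, which slows the actomyosin cycle of smooth muscle, and lies on chromosome 9 from 22099216 to 22109630. With 5 to 21 counts per library it was the least abundant member, at 7.77, 8.27, 2.81 and 4.20 CPM in Bbs8+/+ and 3.64, 3.14, 2.30 and 7.02 CPM in Bbs8-/-. The genotypes overlapped, and no difference was detected (log2 fold change -0.51, interval -1.42 to 0.40, edgeR FDR 0.721). The log2 fold change of Cnn1 was -0.93 without Bbs8-/- replicate 4 and -0.28 without Bbs8+/+ replicate 2.

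**Figure D2:**
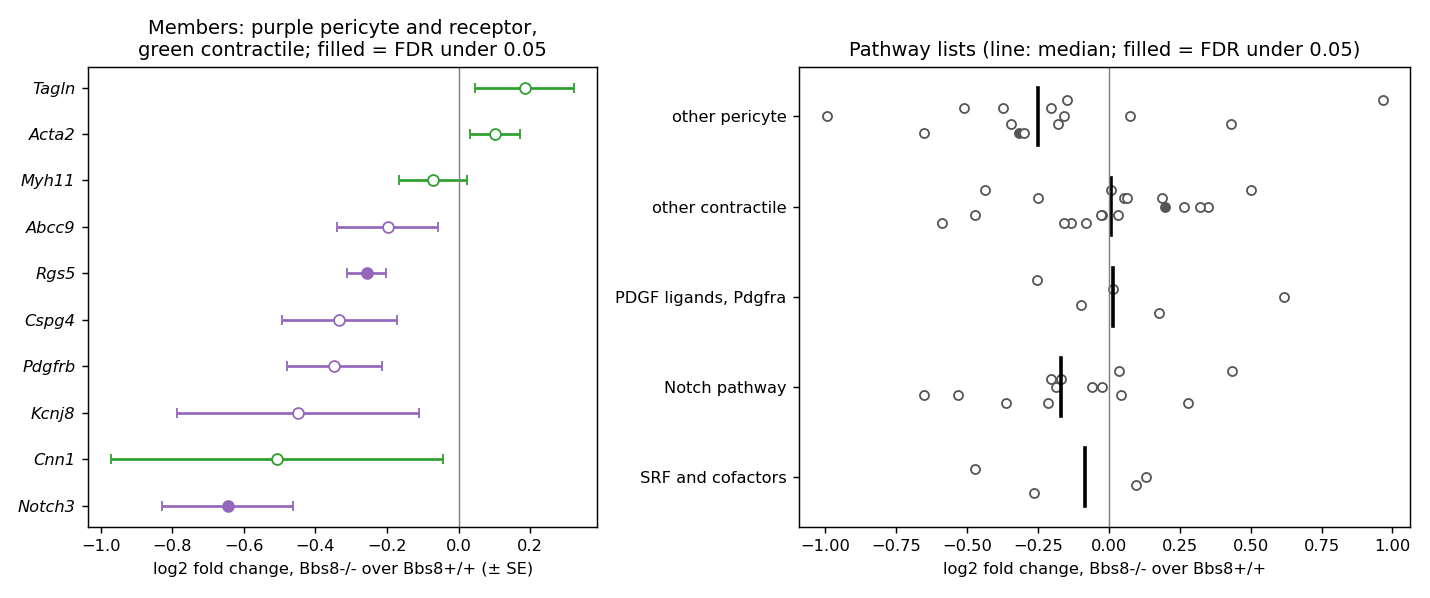
Left, log2 fold change ± SE of each member (horizontal axis), purple for the 6 pericyte genes and green for the 4 contractile genes. Right, the same measure for each tested gene of 5 lists of related genes with a line at the median. Filled symbols passed FDR 0.05, which were Rgs5, Notch3, Angpt1 and Tpm1, and all purple symbols lie below 0.

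SRF and its cofactors switch on contractile genes through CArG boxes, so these were searched for on both strands in the RefSeq start site windows. Windows were at hand for 7 of the 10 members (Pdgfrb, Myh11 and Tagln have no entry). None of the 7 held an exact CArG box, a motif that 1.63% of all 32851 windows of 300 bases hold. Acta2 held 2 copies with 1 of the 6 central letters changed, starting at 84 and 34 bases before the start site, a form found in 8.5% of all windows and in none of the other 6 members. They are set in capitals below. This looser form was searched for after the exact form had given no match.
Acta2, chr19:34255324-34255623, minus strand: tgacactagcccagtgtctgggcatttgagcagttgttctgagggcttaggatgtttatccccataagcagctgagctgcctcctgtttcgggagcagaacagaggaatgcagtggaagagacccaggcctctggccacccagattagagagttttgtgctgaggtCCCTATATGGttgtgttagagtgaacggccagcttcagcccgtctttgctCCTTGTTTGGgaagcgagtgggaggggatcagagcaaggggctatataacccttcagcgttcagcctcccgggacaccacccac

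Exact copies were present in 4 of the 21 windows at hand among the 24 genes listed as contractile or as SRF and its cofactors. They are shown with 15 bases on either side and the motif in capitals. Srf held 2, and the others were Cnn2, Filip1l and Myl9.
Cnn2, chr10:79988529-79988568, plus strand: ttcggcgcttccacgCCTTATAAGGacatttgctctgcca
Filip1l, chr16:57549165-57549204, plus strand: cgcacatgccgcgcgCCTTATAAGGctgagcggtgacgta
Myl9, chr2:156775288-156775327, plus strand: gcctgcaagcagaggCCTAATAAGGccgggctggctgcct
Srf, chr17:46556220-46556259, minus strand: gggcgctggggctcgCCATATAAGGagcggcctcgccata
Srf, chr17:46556200-46556239, minus strand: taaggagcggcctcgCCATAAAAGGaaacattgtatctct

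These 4 genes did not pass the test. Srf itself was at 34.5, 33.1, 33.7 and 29.7 CPM in Bbs8+/+ and 24.9, 26.7, 21.6 and 21.5 CPM in Bbs8-/-, without overlap, with a log2 fold change of -0.47 (edgeR FDR 0.217, unadjusted p 0.0132). Myl9 (log2 fold change 0.01, FDR 0.985), Cnn2 (-0.25, FDR 0.407) and Filip1l (-0.08, FDR 0.842) overlapped between the genotypes. A match is a description of the sequence and not evidence of a bound site.

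The other genes of the mural cell were read from lists. Among 14 further pericyte markers, all tested, 1 was down-regulated, none was up-regulated, and 11 had a negative log2 fold change, with a median of -0.25. Angpt1 encodes angiopoietin 1, which mural cells secrete to steady the endothelium through the receptor Tek. Which cells of the eyecup gave these reads was not measured. The level of Angpt1 was 212, 203, 220 and 197 CPM in Bbs8+/+ and 177, 170, 167 and 153 CPM in Bbs8-/-. The genotypes did not overlap. Angpt1 fell by 0.32 on the log2 scale (SE 0.0808, edgeR FDR 0.0104), and lost its call only without Bbs8-/- replicate 4 (FDR 0.0964) among 17 alternatives. The soluble guanylate cyclase subunit Gucy1a1, the nitric oxide sensor of smooth muscle and pericytes, had a log2 fold change of -0.16 (FDR 0.513), and the transcription factor Foxc1 one of -0.15 (FDR 0.66). Gucy1a1 was at -0.24 without Bbs8-/- replicate 3 and Foxc1 at -0.09 without Bbs8-/- replicate 4.

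Of 19 tested genes among 20 further contractile genes, 1 was up-regulated and none was down-regulated, with 9 negative and 10 positive log2 fold changes and a median of 0.01. Tpm1 encodes a tropomyosin that muscle and many other cells share. Tpm1 rose to 836 ± 47.6 CPM from 729 ± 24.3 CPM (SD, n = 4 per genotype; log2 fold change 0.20, edgeR FDR 0.0187), with all Bbs8-/- libraries above all Bbs8+/+ libraries. This call was lost in 6 of 17 alternatives, with the likelihood ratio test and without any of Bbs8+/+ replicates 1 and 2 and Bbs8-/- replicates 1, 2 and 4 (highest FDR 0.0956). Caldesmon (Cald1, log2 fold change 0.03, FDR 0.843) and myosin light chain kinase (Mylk, -0.13, FDR 0.388) did not pass, and Kcnmb1, with at most 6 counts in a library, was not tested. Leaving out 1 library gave 0.01 to 0.07 for Cald1 (lowest without Bbs8+/+ replicate 1, highest without Bbs8+/+ replicate 3), and -0.08 for Mylk without Bbs8-/- replicate 2.

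The ligands and partners of the receptors did not pass the test. None of 5 tested genes of the platelet-derived growth factor list was called, with a median log2 fold change of 0.02. Pdgfb, the endothelial ligand of Pdgfrb, measured 29.7 ± 2.23 CPM in wild type against 27.6 ± 2.72 CPM in Bbs8-/- (SD, n = 4 per genotype; log2 fold change -0.10, edgeR FDR 0.895). The most different gene of the list, Pdgfc, another ligand of the family, was at 17.7 ± 2.10 CPM in wild type and 27.1 ± 5.22 CPM in Bbs8-/- without overlap, short of the threshold (log2 fold change 0.62, FDR 0.112). Pdgfa had a log2 fold change of 0.18 (FDR 0.505), and the sister receptor Pdgfra, a fibroblast gene also counted in the list of that cell type, one of -0.25 (FDR 0.384). Pdgfa was at 0.30, 0.11 and 0.10 without Bbs8-/- replicates 1, 2 and 3 in turn, and Pdgfb at -0.05 without replicate 1 of either genotype and -0.06 without Bbs8-/- replicate 2. In the Notch list, none of 13 tested genes was called, 9 were negative, and the median was -0.17, which was -0.08, -0.07 and -0.09 without Bbs8+/+ replicates 1, 2 and 3 and 0.00 without Bbs8-/- replicate 2. Jag1, a ligand of Notch3 on endothelium and mural cells, was at 53.5 ± 5.09 CPM in Bbs8+/+ and 55.4 ± 5.75 CPM in Bbs8-/- (log2 fold change 0.04, FDR 0.94). Hes1, a transcriptional target of Notch, had -0.06 (FDR 0.901) and the sister receptor Notch2 had 0.03 (FDR 0.954). Lower values, also short of the threshold, were measured for the ligand Dll4 (-0.65, FDR 0.582) and the targets Nrarp (-0.53, FDR 0.610) and Heyl (-0.36, FDR 0.463), and higher values for the target Hey2 (0.43, FDR 0.812) and the sister receptor Notch4 (0.28, FDR 0.748). Of the 4 genes for SRF and its cofactors none was called, with a median of -0.08 that lay between -0.28 and -0.03 when 1 library was left out (-0.28 without Bbs8+/+ replicate 2) and at -0.26 with filterByExpr. Mrtfb had a log2 fold change of 0.10 (FDR 0.825) and Mrtfa one of -0.26 (FDR 0.804), which was -0.51 without Bbs8-/- replicate 2 and -0.17 without Bbs8-/- replicate 3. Across all these lists, 11 of 56 tested genes had an unadjusted p under 0.05, as did 13% of all genes tested, 1 of the 56 was called lower and 1 higher, and the median was -0.09.

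Mural cells sit on endothelium, so members were also set against the summed level of 15 endothelial genes in the same library. That sum was 1161 to 1234 CPM in Bbs8+/+ and 1147 to 1255 CPM in Bbs8-/-. Among the 15 endothelial genes, 1 (Egfl7) was up-regulated and none was down-regulated, and their median log2 fold change was -0.02. An unadjusted p under 0.05 was reached by 5 of the 15, Egfl7 and 4 with a negative log2 fold change that did not pass the test, Flt1 (-0.25), Tie1 (-0.32), Cdh5 (-0.31) and Sox17 (-0.79), and Flt1 and Tie1 did not overlap between the genotypes. None of the defining genes Pecam1, Cdh5 and Kdr was at 0 in any library. The ratio of Rgs5 to the endothelial sum was 0.579 to 0.618 in Bbs8+/+ and 0.464 to 0.538 in Bbs8-/-, without overlap. For Notch3 the ratio was 0.0275 to 0.0376 against 0.0162 to 0.0246, also without overlap. The Acta2 ratio overlapped between the genotypes, at 0.198 to 0.220 and 0.211 to 0.241. The ratio of Acta2 to Rgs5 was 0.325 to 0.380 in Bbs8+/+ and 0.435 to 0.483 in Bbs8-/-. These ratios were chosen with the values of the genes known and carry no test.

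**Figure D3:**
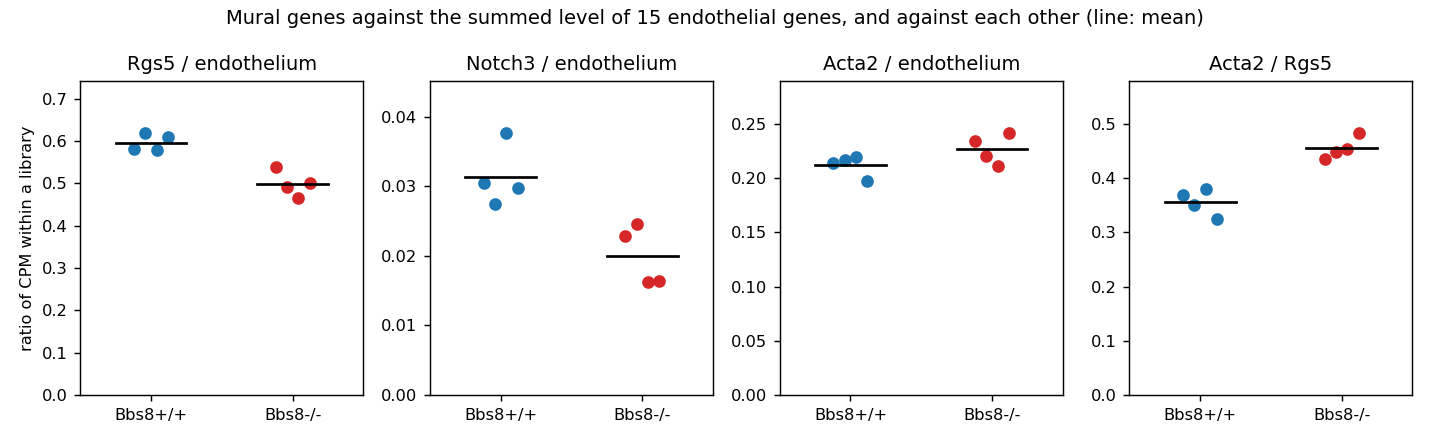
Ratio of CPM within each library (vertical axes, each from 0) for Rgs5, Notch3 and Acta2 over the summed level of 15 endothelial genes, and for Acta2 over Rgs5, with dots for libraries and a line for the mean of each genotype. The Rgs5 and Notch3 ratios of the 4 Bbs8-/- libraries are all below those of Bbs8+/+, and the Acta2 to Rgs5 ratios are all above.

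Other tissue differed between the genotypes as well, and its part in the mural values was not tested. Of 12 fibroblast and sclera genes, 4 were down-regulated, among them Col1a2 and Col1a1, and 2 were up-regulated, and the summed level was 35332 to 37089 CPM in Bbs8+/+ and 27939 to 29143 CPM in Bbs8-/-. Of 7 melanocyte genes, 4 were down-regulated, including Dct and Pmel, with sums of 13301 to 13892 and 11126 to 11692 CPM. Over the genes reported here, 1 of 4 Schwann cell and myelin genes (Mal) and 1 of 8 photoreceptor genes (Gnat1) were down-regulated, 4 and 7 had a negative log2 fold change, and the sums were 249.9 to 312 and 226 to 269 CPM for the former and 278 to 313 and 199.7 to 264 CPM for the latter. Lens genes were higher (6 of 10 up-regulated, including Crygb and Cryaa), at 43.7 to 60.4 CPM in Bbs8+/+ and 380 to 414 CPM in Bbs8-/-. Up-regulated genes numbered 2 of 8 for macrophages (451 to 504 and 548 to 586 CPM), 2 of 5 for red blood cells (5161 to 5730 and 5640 to 6498 CPM) and 1 of 9 for the pigment epithelium (17485 to 18508 and 18896 to 19255 CPM). Skeletal muscle, which shares many genes with smooth muscle, had 2 of 14 tested genes up-regulated (Tnnc2 and Myh8) and sums of 2340 to 2531 and 2515 to 2755 CPM, with Acta1 detected in all libraries. None of 3 ciliary epithelium genes was called, and their sum was 18.5 to 31.3 and 26.6 to 43.1 CPM, with Optc at 0 in some libraries of each genotype. Smooth muscle of the ciliary body could not be told apart from that of vessels with these genes.

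Across the whole series, the targeted gene Ttc8 was lower in every Bbs8-/- library, at 14.7, 19.7, 18.2 and 21.7 CPM in Bbs8+/+ and 9.72, 3.66, 2.30 and 4.21 CPM in Bbs8-/- (log2 fold change -1.95, edgeR FDR 2.75e-06). Library totals were 2159295 to 2884983 counts in Bbs8+/+ and 1636725 to 2179761 counts in Bbs8-/- (two-sided exact permutation p = 0.0857, n = 4 each, where 0.0286 is the smallest p possible). The summed level of 4 Y-linked genes was 59.1 to 65.0 CPM in Bbs8+/+ and 108 to 120 CPM in Bbs8-/-, and Xist was at 641 to 747 and 571 to 626 CPM. All 8 libraries held both, whereas RNA of a single animal would be expected to hold Y-linked transcripts or abundant Xist but not both. The study's methods count each animal as a biological replicate. By that expectation no library held RNA of 1 animal only, and no source used here says how animals were shared among libraries. The p-values, SDs and n = 4 refer to libraries and may leave out the spread between animals. The Y-linked and Xist levels moved with genotype and their part in the mural values was not tested.

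**Figure D4:**
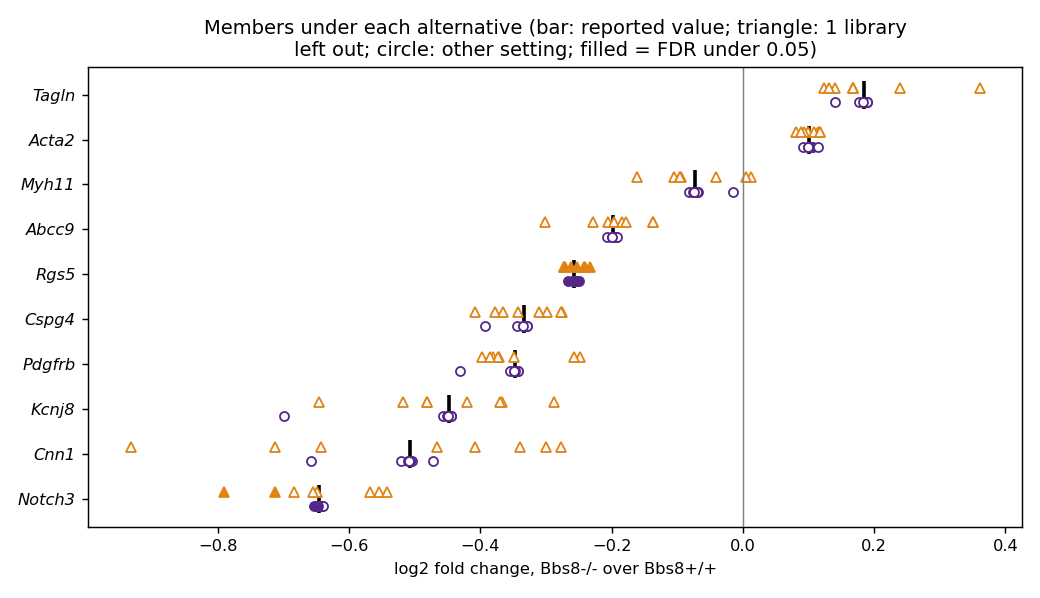
Log2 fold change of each member (horizontal axis) as reported (bar), with 1 library left out (triangles) and under the other settings (circles), filled where FDR was under 0.05. Rgs5 stays between -0.27 and -0.23 and filled throughout, Notch3 is filled in 9 of 17 alternatives, and the 6 pericyte genes are negative in every one.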

How the data were processed

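Libraries of eyecup RNA, 8 in all, were made with the QuantSeq 3′ mRNA kit. The authors deposited raw counts for each gene, made from reads that aligned to a single place: they trimmed reads with BBDuk, aligned them with STAR to mm10 and counted them with htseq-count, whose strand setting is not given in the sources used here. The counter's closing lines (57.5% to 59.3% of a file's reads) were left out. Symbols came from a table of gene identifiers that matched all but 119 of 31053, and positions from GENCODE M21 (mm10). Start site windows were from RefSeq. Groups came from the titles. Lists of related genes and of other cell types were written from general knowledge, and members and lists were chosen with earlier results of these data known.

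The test in edgeR 4.0.16 took every gene that reached 1 CPM in 4 or more libraries and ran in R 4.3.3 (TMM, quasi-likelihood F test, genotype as the only factor, two-sided, Benjamini-Hochberg), as the study's methods name edgeR and FDR 0.05. Standard errors were the log2 fold change over the square root of F, and intervals were 1.96 standard errors either side. Named genes were the members, Ttc8, called genes of the related lists and the 3 most abundant of each. Others named with a motif, a channel subunit or few counts (Myl9, Cnn2, Filip1l, Abcc8, Kcnmb1), overlapping or sex-linked genes and markers at hand were chosen outside that rule. At these totals 3 counts were 1.05 to 1.82 CPM; intervals cover counting error and spread between these libraries. No 2 files were identical, and libraries of a genotype differed by more than sampling noise (chi-square per degree of freedom 1.91 to 3.23, where sampling noise gives 1). Alternatives were RLE factors, total counts, filterByExpr, no filter, a likelihood ratio test, DESeq2 1.42.0, a replicate block, thinning, leaving out each library, and (chosen after seeing the data) leaving out Gm42418, mitochondrial genes, Col1a1 and Col1a2. Some genes of the lists of other cell types are not reported here, and Pdgfc, Dll4, Nrarp, Heyl, Hey2, Notch4, Flt1, Tie1, Cdh5 and Sox17 were named after their values were seen. Protein sequences were not used, so the planned protein comparison was not made.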

Additional observations from a re-analysis of the deposited data

Results flagged for a closer look

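A single library stood apart, by a gap that took up most of its group's spread, in 6 of 62 groups of 4 libraries, and about 3.1 such groups arise by chance. Pdgfrb was 78.67 CPM in Bbs8+/+ replicate 4 against 61.71 to 62.61 CPM in the others. Bbs8+/+ replicate 3 stood apart for both Myh11, at 162.3 CPM against 128.4 to 132.1 CPM, and Tagln, at 72.04 CPM against 45.74 to 47.65 CPM. Tagln was also low in Bbs8-/- replicate 2, at 52.82 CPM against 62.01 to 62.67 CPM. Mrtfa was 13.6 CPM in Bbs8-/- replicate 2 against 7.349 to 7.951 CPM, and Tpm1 was 765.2 CPM in Bbs8-/- replicate 3 against 853.1 to 869.7 CPM. What sets these libraries apart was not tested.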

How the results depend on the processing

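Rgs5 kept its direction and call in all 17 alternatives, and Pdgfrb, Cspg4, Abcc9, Kcnj8, Acta2, Tagln and Cnn1 kept theirs and stayed short of the threshold (Cnn1 in 16, as filterByExpr removed it). The number of members called lower was 1 with DESeq2 and 1 after thinning, and 1 to 2 with a library left out, Notch3 being the one lost. Its log2 fold change was -0.642 with DESeq2, -0.639 after thinning and -0.791 to -0.542 with a library left out, of which -0.684 to -0.542 where the call was lost. Myh11 ranged from -0.161 to 0.0128 with a library left out and was positive at 0.0128 without Bbs8+/+ replicate 3 and 0.0053 without Bbs8-/- replicate 3. The median of the Notch list ranged from -0.185 to 0.0031 and that of the platelet-derived growth factor list from -0.0589 to 0.124, the latter being 0.114 after thinning. Genes of the related lists called higher (1, Tpm1) became 0 with the likelihood ratio test and were 0 to 1 with a library left out, as were those called lower. Without a library, Hes1 ranged from -0.124 to 0.0174, Jag1 from -0.0245 to 0.082 and Notch2 from -0.0441 to 0.159, with FDR of at least 0.757. The cause was not tested. Genes called over the whole table numbered 116 to 186 higher and 107 to 172 lower. With replicate number as a block, 2 members were called and Notch3 had a log2 fold change of -0.65 (FDR 0.0441), and no member's call changed. Deviations of same-numbered libraries correlated at -0.056 to 0.019 over 6628 genes. Equal numbers thus gave no sign of pairing, and only 1 of 8 libraries correlated best with its own number. Kcnj8 and Cnn1 had few counts, and whether greater depth would alter their results was not tested.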
